A study of Homo sapiens with 6 samples.

Results

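The genes described here are the insulin-like growth factor (IGF) binding proteins IGFBP1 to IGFBP7, the ligand IGF2 and its receptor IGF2R. They were chosen by symbol as a family, with earlier results of these data known. The 9 symbols matched 10 of the 58735 gene rows of the table, because IGF2 was listed under 2 gene identifiers. RNA was sequenced from AsPC-1, an established human pancreatic cancer cell line, to compare gene expression with and without additional MMP28, which encodes a secreted matrix metalloproteinase. The Vector group (n = 3 libraries) was labelled wild type and carried an empty lentivirus. The OE-MMP28 group (n = 3 libraries) carried a lentivirus with MMP28. By the study's methods the backbone also carried a green fluorescent protein and a puromycin resistance cassette, and the infected cells were selected with puromycin. The methods do not describe the picking of separate clones. Nothing in the labels stated that the replicates were separate cultures, so the p-values below measure the spread between these libraries, which may be technical.

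IGF1 and IGF2 are secreted growth factors that signal through the receptor tyrosine kinase IGF1R. IGFBP1 to IGFBP6 bind these ligands with high affinity and control how much reaches the receptor, while proteases that cleave a binding protein release its ligand. IGF2R, the cation-independent mannose 6-phosphate receptor, carries IGF2 to the lysosome, where it is degraded.

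MMP28 was higher in the OE-MMP28 libraries, at 13.1, 13.9 and 15.1 FPKM against 5.17, 9.11 and 8.43 FPKM in Vector. FPKM are fragments scaled to both gene length and library size. The rise was 0.90 on the log2 scale (SE 0.19; adjusted p = 0.00226, quasi-likelihood test of edgeR, Benjamini-Hochberg), and reads of the inserted and the resident gene cannot be told apart. Total counts ranged from 13633249 to 16691458 per library. Of the 8 ductal epithelial markers all were tested, with a summed level of 2688 to 3672 FPKM in Vector and 3636 to 4447 FPKM in OE-MMP28. KRT7 was the scarcest of them, at 0.597 to 2.22 FPKM over the libraries. The markers went both ways, with KRT19 (log2 fold change 0.71) and MUC1 (2.16) higher and CDH1 (-0.59) and CLDN4 (-0.61) lower by edgeR. Of the 8 fibroblast and stellate cell markers, COL1A1, COL1A2, COL3A1, DCN, PDGFRB and FAP were at or near 0, whereas LUM held 33.8 to 56.9 FPKM, and the summed level of the list was 35.8 to 42.3 FPKM in Vector and 39.9 to 57.7 FPKM in OE-MMP28. ACTA2, the only one called, fell from 1.41, 1.77 and 1.87 FPKM in Vector to 0.722, 0.784 and 0.559 FPKM in OE-MMP28 (log2 fold change -1.27, edgeR adjusted p = 0.00318). The calls of CDH1, CLDN4 and ACTA2 were lost when the median change of the genes within 10 Mb was subtracted (edgeR adjusted p = 0.395, 0.0774 and 0.0578). Counting that fit, 4 of 17 alternative fits did not call CDH1 and 5 of 17 did not call CLDN4. The part of these markers in the results below was not tested. The summed levels of the endothelial, macrophage, and acinar and islet markers were at most 1.19 FPKM in any library. Among them only the scarce PECAM1 was called, with 0, 4 and 4 counts in Vector and 13, 21 and 30 in OE-MMP28 (log2 fold change 2.79, edgeR adjusted p = 0.00361). The other endothelial marker tested, VWF, was not called (-0.27, edgeR adjusted p = 0.735). In bulk RNA, fewer cells of a kind and less RNA per cell cannot be told apart.

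Of the 6 IGF axis genes with enough counts to be tested, IGFBP4 rose and IGFBP1 and IGFBP3 fell in OE-MMP28 at an adjusted p under 0.05 (edgeR, Benjamini-Hochberg). IGFBP2, IGFBP6 and IGF2R did not pass. Over all 15319 genes tested, 23.4% passed, with 11.7% higher and 11.6% lower. The median log2 fold change of the 6 genes was -0.39, against 0.014 over all genes tested. It is the midpoint between IGFBP3 (-0.93) and IGF2R (0.15), with none of the genes near it, and the 6 genes went both ways. IGFBP1 and IGFBP3 were among the most abundant messenger RNAs of the Vector cells, at ranks 34 to 54 by FPKM, and at ranks 94 to 121 in OE-MMP28. Among all tested genes averaging 10 FPKM or more, 27.5% were called. The smallest of the 3 called changes was that of IGFBP3, -0.93 on the log2 scale. A change of at least 0.9 in either direction with an edgeR adjusted p under 0.05 was met by 8.87% of the genes tested. That cut-off lies just under the size of the IGFBP3 change, so all 3 meeting it is no separate result.

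The promoter windows of IGFBP3 and IGFBP4 are shown because these binding proteins were called in opposite directions and both windows were given. They are taken from RefSeq on build GRCh38.p14 and run from 250 bases before to 50 bases after the annotated start. IGFBP3 lies at chr7:45921223-45921522 on the minus strand and IGFBP4 at chr17:40443200-40443499 on the plus strand. The IGFBP3 window lies wholly inside the span given for that gene below (45912245 to 45921874). The RefSeq start used for IGFBP3 is thus not the outer end of that span. Capitals mark a TATA element (TATAAA or its variant TATATA) and the GC box GGGCGG, which reads CCGCCC where it lies on the other strand.
IGFBP3: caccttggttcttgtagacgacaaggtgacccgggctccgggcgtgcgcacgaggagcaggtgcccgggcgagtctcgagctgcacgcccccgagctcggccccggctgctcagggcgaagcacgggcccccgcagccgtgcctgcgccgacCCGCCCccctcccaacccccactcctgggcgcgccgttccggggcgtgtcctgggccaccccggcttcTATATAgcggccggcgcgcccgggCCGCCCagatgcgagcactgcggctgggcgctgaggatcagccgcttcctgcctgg
IGFBP4: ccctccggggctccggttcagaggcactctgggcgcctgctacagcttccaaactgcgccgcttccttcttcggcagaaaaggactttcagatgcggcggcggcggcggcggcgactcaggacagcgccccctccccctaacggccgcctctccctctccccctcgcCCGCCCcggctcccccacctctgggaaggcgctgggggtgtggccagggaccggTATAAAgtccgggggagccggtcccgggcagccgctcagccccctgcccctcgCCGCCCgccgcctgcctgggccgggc

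Both windows held a TATA element at nearly the same place, beginning at position -30 relative to the start in IGFBP3 and -29 in IGFBP4. Both also held 2 GC boxes, all on the strand opposite to the gene. Searched on both strands, TATAAA occurred in 11.5%, TATATA in 3.99% and GGGCGG in 45.0% of the 35116 RefSeq promoter windows of the same length. The E-box CACGTG (7.26% of windows) and the AP-1 site TGACTCA (4.95% of windows) were in neither. The windows were similar in base composition, with 74.7% G and C for IGFBP3 and 74.0% for IGFBP4. A match describes these letters and not a site in use. Windows were given for IGFBP2, IGFBP5, IGFBP6 and IGF2R as well, of which only that of IGF2R held CACGTG and none held TATAAA or TATATA.

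The ligand IGF2 had a count of 0 in all 6 libraries under both of its identifiers (ENSG00000167244, chromosome 11, 2129112 to 2149603, and ENSG00000284779, 2129112 to 2158658, minus strand, build GRCh38 with GENCODE release 29). This does not measure the gene well. The 2 rows share 73.7% and 87.9% of their exon length with each other and 20.9% and 27.0% with the read-through gene INS-IGF2, which was also at 0. Only 1835 of 6979 exon bases of the first and 587 of 5851 of the second were free of another gene on the same strand, and how reads in shared exons were counted was not given in the sources used here. The neighbouring imprinted non-coding gene H19 had at most 3 counts per library and the antisense gene IGF2-AS at most 2. A count of 0 allowed up to 3 counts, or 0.180 to 0.220 CPM (counts scaled to the library total), as far as counting error goes.

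IGF2R (ENSG00000197081, chromosome 6, 159969099 to 160113507, plus strand) had 10.5, 9.74 and 8.86 FPKM in Vector replicates 1, 2 and 3 and 10.4, 13.3 and 8.32 FPKM in OE-MMP28 replicates 1, 2 and 3. The groups overlapped, with the highest and the lowest value both in OE-MMP28. Its log2 fold change was 0.15 (SE 0.17, 95% interval -0.19 to 0.50; edgeR adjusted p = 0.553). Without OE-MMP28 replicate 2 the value was -0.056, so its direction rested on that library.

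IGFBP1 (ENSG00000146678, chromosome 7, 45888357 to 45893668, plus strand) encodes a secreted binding protein best known from liver, where insulin lowers its expression. It had 602, 483 and 504 FPKM in Vector and 253, 261 and 228 FPKM in OE-MMP28, from 6350 to 15214 counts per library. Every OE-MMP28 library lay below every Vector library, a separation found in 38.1% of the genes tested. The mean was 530 ± 63.5 FPKM (SD, n = 3) in Vector and 248 ± 17.2 FPKM (SD, n = 3) in OE-MMP28, 2.14-fold lower. In the fit over all genes the log2 fold change was -1.09 (SE 0.15, 95% interval -1.39 to -0.78), with an edgeR adjusted p of 2.50e-05.

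IGFBP3 (ENSG00000146674, chromosome 7, 45912245 to 45921874, minus strand) encodes the main carrier of IGF in serum. Its level was 433, 489 and 408 FPKM in Vector and 240, 220 and 231 FPKM in OE-MMP28, from 15913 to 30262 counts per library. The groups did not overlap, and the OE-MMP28 values spread over a narrower range. Averaged by group, this was 444 ± 41.4 FPKM (SD, n = 3) in Vector and 230.4 ± 10.3 FPKM (SD, n = 3) in OE-MMP28, 1.93-fold lower. edgeR gave a log2 fold change of -0.93 (SE 0.14, 95% interval -1.23 to -0.64) and an adjusted p of 8.44e-05.

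IGFBP1 and IGFBP3 lie tail to tail, 18576 bases apart, on opposite strands of chromosome 7. Their ratio changed less than either gene. IGFBP1 over IGFBP3 was 1.39, 0.987 and 1.23 in Vector and 1.05, 1.19 and 0.987 in OE-MMP28 (ratios of FPKM), and the groups overlapped (two-sided exact permutation test of the log2 ratio, p = 0.4). The pair's outer neighbours among the tested genes did not pass the test. GTF2IP13, a pseudogene beside IGFBP1, had a log2 fold change of -0.43 (edgeR adjusted p = 0.102), and AC004870.2, 1048 kb beyond IGFBP3, had 0.069 (edgeR adjusted p = 0.892). The median log2 fold change of the 69 tested genes within 10 Mb of IGFBP1 was -0.053. Subtracting the local median left IGFBP1 at -1.03 and IGFBP3 at -0.89.

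IGFBP4 (ENSG00000141753, chromosome 17, 40443461 to 40457731, plus strand) encodes a binding protein that mostly restrains IGF action and is cleaved by the metalloproteinase PAPPA. Its level was 55.5, 58.3 and 45.2 FPKM in Vector and 98.1, 137 and 139.9 FPKM in OE-MMP28, from 1467 to 5179 counts per library. The groups did not overlap, with OE-MMP28 replicate 1 the lowest of its group. The mean was 53.0 ± 6.89 FPKM (SD, n = 3) in Vector and 125 ± 23.3 FPKM (SD, n = 3) in OE-MMP28, 2.36-fold higher. The edgeR fit gave a log2 fold change of 1.25 (SE 0.17, 95% interval 0.90 to 1.60) and an adjusted p of 2.52e-05.

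The surroundings of IGFBP4 differed between its sides. TOP2A, a DNA topoisomerase of dividing cells, lies at lower coordinates and did not pass (log2 fold change 0.19, edgeR adjusted p = 0.400). At higher coordinates, AC018629.1, an unconfirmed transcript of unknown function on the minus strand 15.8 kb away, had 37, 22 and 19 counts in Vector and 189, 157 and 216 counts in OE-MMP28. It rose by 2.70 on the log2 scale (edgeR adjusted p = 6.27e-07). TNS4, named after its values were seen, lies 538 bases beyond AC018629.1 on the same strand and encodes a focal adhesion protein. It had 14.8, 8.30 and 10.6 FPKM in Vector and 70.2, 75.4 and 78.9 FPKM in OE-MMP28, a log2 fold change of 2.74 (edgeR adjusted p = 6.87e-09). The median log2 fold change of the 300 tested genes within 10 Mb of IGFBP4 was 0.0030.

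IGFBP6 (ENSG00000167779, chromosome 12, 53097436 to 53102345, plus strand) encodes a binding protein that prefers IGF2 over IGF1. It had 146, 86.2 and 98.2 FPKM in Vector and 88.0, 137 and 163 FPKM in OE-MMP28. The groups overlapped, since Vector replicate 1 and OE-MMP28 replicate 1 each stood apart from the other two of their group. The log2 fold change was 0.24 (SE 0.21, 95% interval -0.19 to 0.68; edgeR adjusted p = 0.431). Leaving out single libraries moved it between 0.042 when OE-MMP28 replicate 3 was dropped and 0.50 when Vector replicate 1 was. A rise of the size seen for IGFBP4 lay outside the 95% interval, whereas changes from -0.19 to 0.68 lay inside it.

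IGFBP2 (ENSG00000115457, chromosome 2, 216632828 to 216664436, plus strand), a binding protein abundant in serum and in the developing nervous system, was near the limit of detection. It had 35, 39 and 36 counts in Vector and 10, 27 and 24 counts in OE-MMP28, or 0.480, 0.605 and 0.512 FPKM against 0.133, 0.357 and 0.299 FPKM. The groups did not overlap, but the test was not passed. Its log2 fold change was -0.99 (SE 0.38, 95% interval -1.79 to -0.20; edgeR adjusted p = 0.0636). limma voom (-1.09, adjusted p = 0.0491) and the fit with a replicate block (-1.06, edgeR adjusted p = 0.0412) placed it under the threshold. The 84 tested genes within 10 Mb had a median log2 fold change of -0.34, and against that median IGFBP2 stood at -0.66 (edgeR adjusted p = 0.267).

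IGFBP7 (ENSG00000163453, chromosome 4, 57030773 to 57110385, minus strand), which binds IGF with low affinity and is typical of vessel walls, and IGFBP5 (ENSG00000115461, chromosome 2, 216672105 to 216695525, minus strand), a matrix-bound binding protein, had too few counts for the fit. IGFBP7 had 5, 6 and 5 counts in Vector and 4, 1 and 2 counts in OE-MMP28. All Vector libraries were higher, and the two-sided exact permutation test of FPKM gave p = 0.1, the smallest that 3 against 3 libraries allow. The ratio of the pooled rates, OE-MMP28 over Vector, was 0.391 with a 95% counting interval of 0.136 to 1.003, which takes in equal rates. Of its 1930 exon bases, 270 overlap POLR2B and 94 overlap IGFBP7-AS1 on the other strand, and whether the counting used the strand was not given in the sources used here. IGFBP5 had 1 count in all, in OE-MMP28 replicate 1, although it lies only 7668 bases from IGFBP2.

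**Figure D1:**
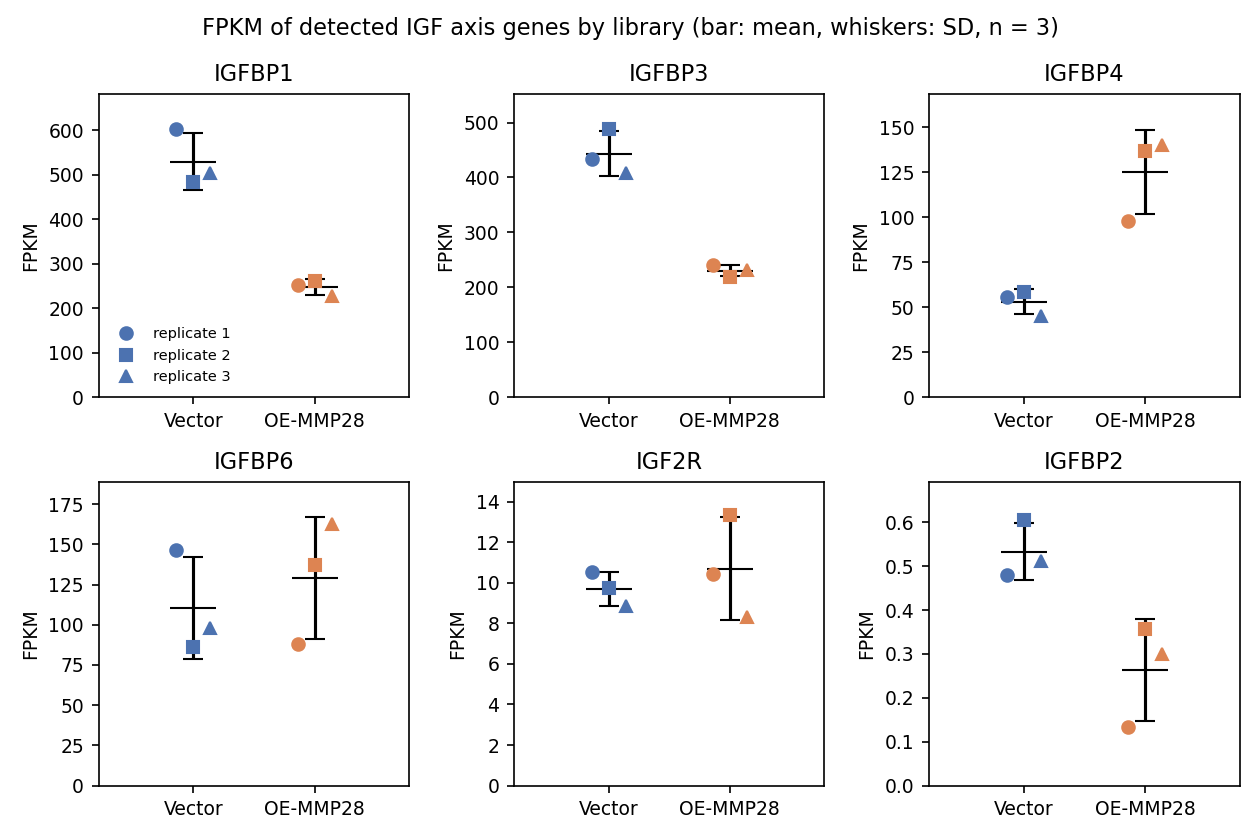
FPKM of the 6 tested IGF axis genes in each library (vertical axes, linear, starting at 0, a separate scale for each gene), with points for replicates 1 to 3, a bar for the mean and whiskers for the SD (n = 3). IGFBP1 and IGFBP3 are lower and IGFBP4 is higher in all 3 OE-MMP28 libraries, IGFBP6 and IGF2R overlap between the groups, and IGFBP2 stays at or below 0.605 FPKM throughout.

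**Figure D2:**
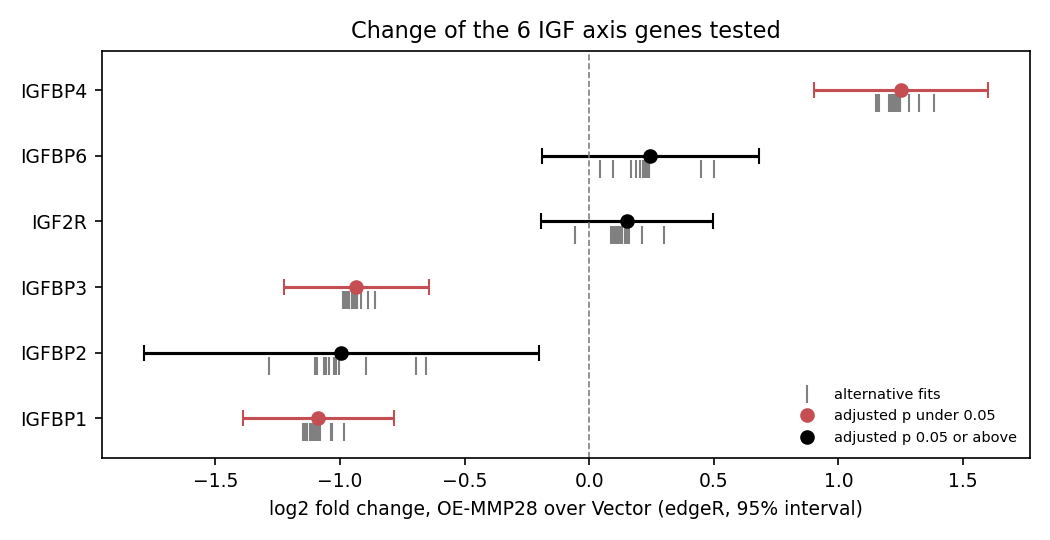
Log2 fold change of OE-MMP28 over Vector for the 6 tested genes (horizontal axis), with circles and whiskers for the edgeR estimate and its 95% interval, red where the adjusted p is under 0.05, and grey ticks for the alternative fits. The ticks of IGFBP1, IGFBP3 and IGFBP4 stay close to their estimates, whereas those of IGFBP6 spread from 0.042 to 0.50 and 1 tick of IGF2R lies below 0.

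FPKM is scaled by gene length, here all annotated exon bases of a gene (1653 for IGFBP1 over 3 transcripts, 4571 for IGFBP3 over 11). Where the expressed transcript is shorter than that, FPKM understates its level. The order, sums, shares and ratios across the binding proteins below therefore hold on this scale only. In Vector the order was IGFBP1, IGFBP3, IGFBP6, IGFBP4, IGFBP2 and IGFBP7, and the ranges of IGFBP1 and IGFBP3 overlapped. IGF2R lay between IGFBP4 and IGFBP2. In OE-MMP28 the order of the means was the same, but IGFBP4 had drawn level with IGFBP6, and their ranges overlapped as did those of IGFBP1 and IGFBP3. The FPKM ratio of IGFBP6 over IGFBP4 was 2.63, 1.48 and 2.17 in Vector and 0.898, 1.00 and 1.16 in OE-MMP28.

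Summed over IGFBP1 to IGFBP7, the level was 1238, 1118 and 1057 FPKM in Vector and 679, 755 and 763 FPKM in OE-MMP28. The groups did not overlap, with means of 1137 ± 92.0 FPKM (SD, n = 3) and 732 ± 46.0 FPKM (SD, n = 3). The exact permutation test gave p = 0.1, the smallest possible here, as for every separation of the groups below. IGFBP4 made up 4.66% ± 0.492 (SD, n = 3) of this sum in Vector and 17.0% ± 2.20 (SD, n = 3) in OE-MMP28. IGFBP1 and IGFBP3 together made up 85.7% ± 1.78 (SD, n = 3) and 65.5% ± 6.34 (SD, n = 3). Both shares separated the groups. The share of IGFBP6 also separated them, at 7.71% to 11.8% in Vector and 13.0% to 21.3% in OE-MMP28, although its own level did not. Since IGFBP1 and IGFBP3 made up most of the sum, their fall alone lowers it and raises the share of an unchanged gene. The sum and the shares thus restate the levels of the single genes and are no further results. The IGFBP3 share taken alone overlapped (exact permutation p = 0.2). The FPKM ratio of IGFBP4 over IGFBP3 was 0.111 to 0.128 in Vector and 0.408 to 0.623 in OE-MMP28.

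**Figure D3:**
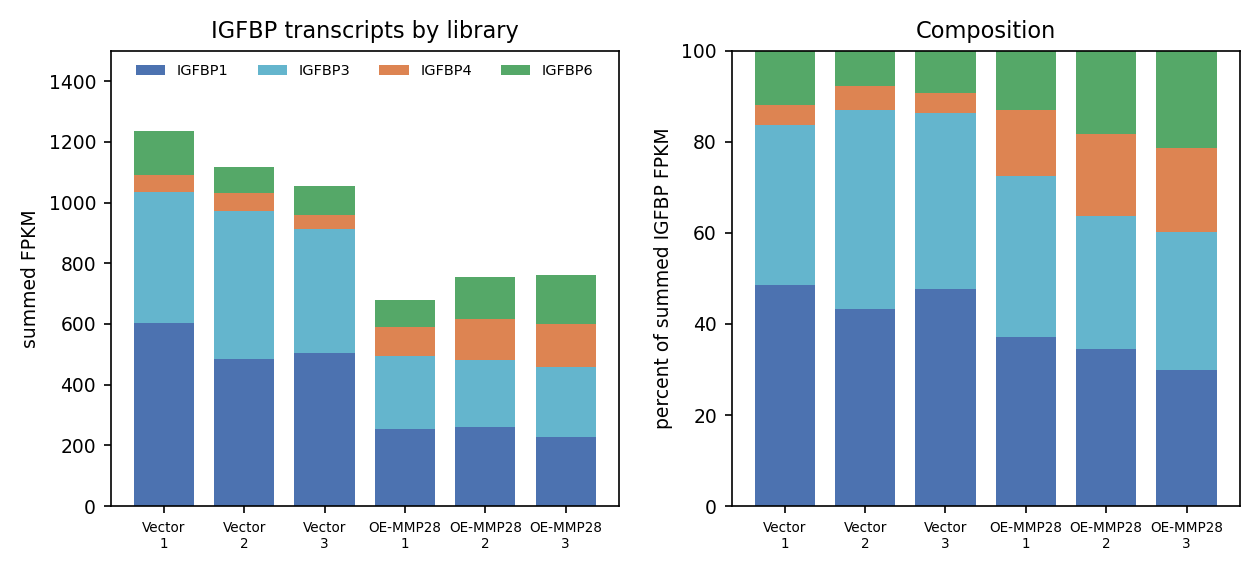
Stacked bars of the 4 abundant IGFBP genes in each library, as summed FPKM (left, vertical axis from 0) and as percent of the summed IGFBP FPKM (right, 0 to 100%); the 3 scarce ones are not drawn. The bars fall from 1057 or more FPKM in Vector to 763 or less in OE-MMP28, and the IGFBP4 segment widens from between 4.28% and 5.22% to between 14.4% and 18.3%.

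Genes whose pattern over the 6 libraries was most like that of a called binding protein were ranked among 12253 genes by the root mean square difference of their centred log2 CPM. For IGFBP4 these were UPK3B (0.082), ARHGAP23 (0.094) and SNHG10 (0.111). For IGFBP1 they were RNF39 (0.055), GABARAPL1 (0.069) and SPIRE1 (0.102), and for IGFBP3 PLCG2 (0.055), CHST10 (0.066) and PRKG1-AS1 (0.070). IGFBP1 and IGFBP3 differed from each other by 0.181 and IGFBP1 and IGFBP4 by 1.18 on the same scale, in log2 units over 6 libraries. This likeness describes these libraries and carries no test.

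Genes that act around the binding proteins were taken from 6 lists (ligands and receptors, other proteins with an IGFBP domain, proteases, the IGF2 locus and its messenger RNA binders, receptor signalling, and mannose 6-phosphate sorting). Of their 75 genes, 54 were tested, with 7 higher and 7 lower in OE-MMP28 (edgeR, Benjamini-Hochberg). That is 25.9% called, near the 23.4% of all genes tested, and the median log2 fold change was 0.051. Without OE-MMP28 replicate 2, 9 of these genes were called. Of the fits with a single library left out, this one also called the fewest genes over all genes tested.

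Among ligands, receptors and the serum carrier subunit, IGF1 and INS were at 0 in every library and IGFALS had at most 12 counts. IGF1R, the receptor through which both IGFs signal, had 5.03, 5.12 and 5.81 FPKM in Vector and 3.97, 3.87 and 3.84 FPKM in OE-MMP28. All OE-MMP28 libraries were lower, and the log2 fold change was -0.44 (SE 0.15; edgeR adjusted p = 0.0366), though 7 of 17 alternative fits did not call it (largest adjusted p 0.207). The insulin receptor INSR had a log2 fold change of -0.40 (SE 0.15; edgeR adjusted p = 0.0646), and 5 of 17 alternative fits called it.

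Among other proteins with an IGFBP domain, 6 of 13 were tested, of which 2 rose and 1 fell, against 23.4% called over all genes tested. CYR61 (CCN1), a matrix protein of the CCN family, had 52.6, 61.5 and 59.9 FPKM in Vector and 84.5, 87.4 and 105 FPKM in OE-MMP28. It rose by 0.68 on the log2 scale (SE 0.15; edgeR adjusted p = 0.00264). WISP3 (CCN6) rose by 0.74 (SE 0.22; edgeR adjusted p = 0.0187), a call that was lost when OE-MMP28 replicate 2 or 3 or Vector replicate 3 was left out (largest adjusted p 0.103). CTGF (CCN2) overlapped between the groups.

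HTRA1, a secreted serine protease that carries an IGFBP-like domain and cleaves IGFBP5, fell. Its level was 15.8, 22.8 and 19.4 FPKM in Vector and 8.30, 8.47 and 8.76 FPKM in OE-MMP28. The log2 fold change was -1.17 (SE 0.17; edgeR adjusted p = 6.99e-05), or -0.70 after the local median was subtracted (edgeR adjusted p = 0.00832). MMP7, matrilysin, a metalloproteinase that can cleave IGFBP3, rose from 105, 93.7 and 123 FPKM in Vector to 330, 309 and 331 FPKM in OE-MMP28, a log2 fold change of 1.61 (SE 0.15; edgeR adjusted p = 2.50e-07). The 84 tested genes within 10 Mb of MMP7 had a median of 0.53, and against it MMP7 stood at 1.08 (edgeR adjusted p = 3.94e-05). The pappalysin PAPPA, which cleaves IGFBP4, had at most 13 counts per library and its relative PAPPA2 at most 2, so neither could be compared. Of the pappalysin inhibitors, STC1 was tested and not called (log2 fold change -0.23, edgeR adjusted p = 0.583), and it turned to 0.10 against its local median.

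Among the proteins that bind IGF2 messenger RNA, none was called. IGF2BP2 had 16.2, 15.6 and 16.0 FPKM in Vector and 22.9, 20.6 and 19.2 FPKM in OE-MMP28. The groups did not overlap, and the log2 fold change was 0.40 (SE 0.14; edgeR adjusted p = 0.0507). Of 17 alternative fits, 2 called IGF2BP2 (smallest adjusted p 0.0357, by DESeq2). Subtracting the local median turned its direction to -0.079. IGF2BP3 had a log2 fold change of 0.26 (SE 0.15; edgeR adjusted p = 0.229), and the fetal IGF2BP1 had at most 11 counts.

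In the receptor signalling list, 32 of 34 genes were tested, of which 3 rose and 5 fell (edgeR, Benjamini-Hochberg), or 25.0% called against 23.4% of all genes tested. IRS2, an adaptor that couples the IGF1 and insulin receptors to phosphoinositide 3-kinase, had 19.8, 33.0 and 23.5 FPKM in Vector and 13.2, 14.2 and 10.4 FPKM in OE-MMP28. It fell by 1.00 on the log2 scale (SE 0.18; edgeR adjusted p = 0.000535), while the related IRS1 did not pass (0.27, edgeR adjusted p = 0.220) except against its local median (0.53, adjusted p = 0.0269). RICTOR, a subunit of mTOR complex 2, fell by 0.92 (SE 0.17; edgeR adjusted p = 0.000633), and PIK3R1, the regulatory subunit p85 alpha, rose by 0.83 (SE 0.16; edgeR adjusted p = 0.00103).

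The exchange factor SOS1 (log2 fold change -0.72) and the catalytic subunit PIK3CB (0.70) were also called by edgeR, with adjusted p-values of 0.00268 and 0.00751. After the local median was subtracted they stood at -0.32 and 0.042 and were no longer called. AKT1 (0.45) and the scarce PIK3CD (-1.20), named after their values were seen, were called as well. These 2 had adjusted p-values of 0.0394 and 0.0377 by edgeR. Of the alternative fits, 9 of 17 did not call AKT1 and 6 of 14 did not call PIK3CD (largest adjusted p 0.746 and 0.243), and the local-median fit turned AKT1 to -0.090.

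The sorting list concerns the pathway in which IGF2R acts as a receptor for lysosomal enzymes. All 10 genes were tested and 1 was called, against 23.4% of all genes tested. It was GNPTG, a subunit of the enzyme that makes the mannose 6-phosphate tag. It had 8.85, 9.25 and 9.03 FPKM in Vector and 11.8, 14.4 and 17.0 FPKM in OE-MMP28, and rose by 0.68 on the log2 scale (SE 0.17; edgeR adjusted p = 0.00564), a call lost after subtraction of the local median (0.43, adjusted p = 0.0879). M6PR, the smaller cation-dependent receptor, overlapped between the groups (log2 fold change 0.31, edgeR adjusted p = 0.179).

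**Figure D4:**
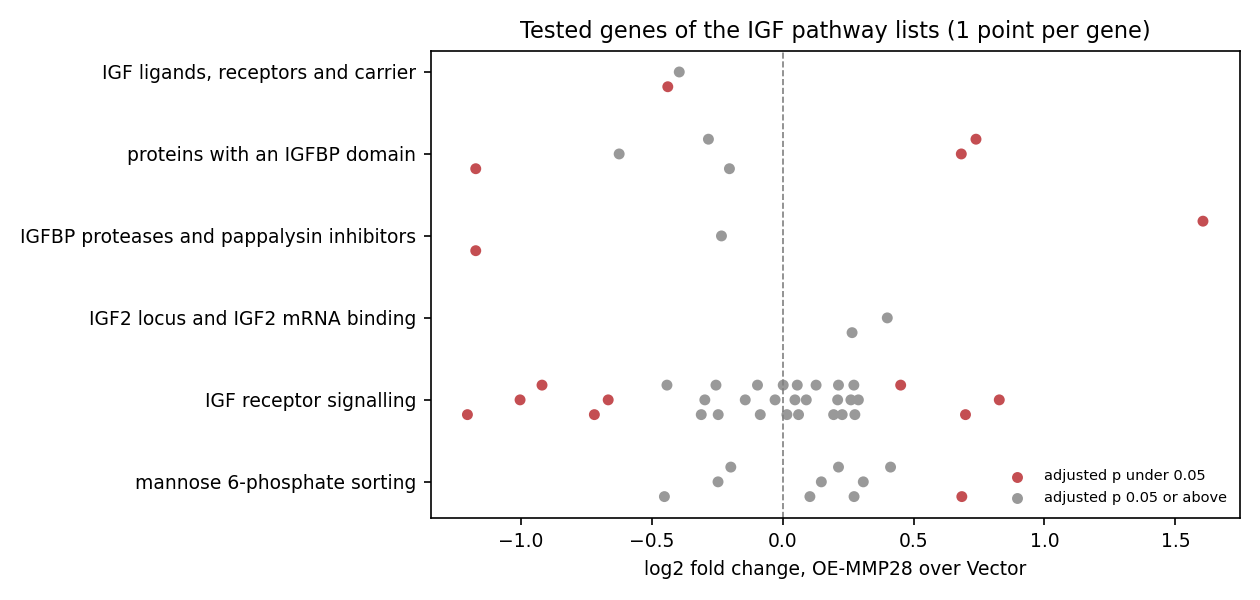
Log2 fold change of OE-MMP28 over Vector (horizontal axis) for the tested genes of the 6 lists, 1 point per gene (HTRA1 stands in both lists that hold it), spread vertically for legibility and red where the edgeR adjusted p is under 0.05. The points of receptor signalling lie on both sides of 0, and the point farthest to the right is MMP7 at 1.61.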

How the data were processed

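Libraries of total RNA from AsPC-1 cells (3 Vector, 3 OE-MMP28) were grouped by label. The deposited table holds, for each gene and library, a raw read count and an FPKM value computed by the authors. The FPKM were scaled by gene length and by a library size that was not exactly the total count. The submitters' processing notes name HISAT2 2.0.5 and featureCounts 1.5.0-p3. Their handling of strand and of reads matching several genes is not given in the sources used here. All 58735 gene identifiers were in GENCODE release 29 (GRCh38), and 58690 had its coordinates. Columns with the authors' own group means, fold changes and p-values were not used, and 0 per-sample columns were unmapped.

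Groups were compared by the quasi-likelihood test of edgeR 4.0.16 (R 4.3.3) on counts kept by filterByExpr (minimum count 10, minimum total 15), scaled by TMM, with the group as the only term and Benjamini-Hochberg adjustment over 15319 genes. Scripts were tested on simulated data. Exact permutation tests used scipy 1.17.1. Alternatives used DESeq2 1.42.0, limma 3.58.1 (voom, and log2(FPKM + 1) or log2(FPKM + 0.1)), other scalings and filters, a local-median offset (at least 20 genes within 10 Mb), the replicate block, and each library left out. No library was a duplicate of another. Replicate numbers did not pair the samples.

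Intervals on pooled counts cover counting error only, since no molecular identifiers were used and reads are not independent molecules. The members and lists were chosen with earlier results of these data known. Named were all members, MMP28, 7 fixed IGF genes, up to 6 called genes of at least 1 FPKM per list, the neighbours, and the 3 genes most like each called member. Not every called list gene is reported here. All 111 list entries matched, 6 by an older symbol.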

Additional observations from a re-analysis of the deposited data

How the results depend on the processing

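The calls of IGFBP1, IGFBP3 and IGFBP4 were made in all 17 alternative fits. Their adjusted p-values reached at most 0.00438, 0.00510 and 0.00760, and their log2 fold changes stayed within -1.15 to -0.98, -0.99 to -0.86 and 1.15 to 1.39. IGFBP2 was under the threshold in 2 of 14 fits, limma voom (-1.09) and the replicate block (-1.06), and IGF2R lay between -0.056 with OE-MMP28 replicate 2 left out and 0.30 with OE-MMP28 replicate 3 left out. The count of genes higher in OE-MMP28, 1795, was 1000 by limma on log2(FPKM + 0.1), 1009 on log2(FPKM + 1) and 1101 with the local-median offset. The count of lower genes, 1784, was 970 and 965 by the same limma fits. Leaving out single libraries gave 985 to 1916 higher and 1044 to 1949 lower genes, the fewest without OE-MMP28 replicate 2. It gave 9 to 15 called genes of the lists in place of 14. Without single libraries AC004870.2 ranged from -0.081 to 0.36, with another negative value of -0.032, and IGF2BP2 turned to -0.079 with the local-median offset. The cause was not tested. Upper-quartile scaling gave 1541 higher and 2016 lower genes.

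Same-numbered libraries did not deviate together (correlations of -0.088 to 0.017 over 3 pairs). With the replicate number as a block, 3685 genes were called against 3579 without it, of which 3447 were called in both. IGFBP5 and IGFBP7 had too few counts to pass the filter.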
